A study of Rattus norvegicus with 10 samples.

Results

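The 10 genes described here encode the enzymes and regulators of de novo lipogenesis, the making of new fatty acids from glucose carbon. They were taken by name from a list, as every probe set that the array's annotation gives 1 gene symbol on that list. All 10 genes were found, with 17 probe sets, out of 14217 genes with 20826 single-gene probe sets. A probe set is the group of short probes on an array that together measure 1 transcript. Their expression was measured in white adipose tissue, the fat store of the body, of 10 male rats 13 weeks old. In the noodle group, 5 rats were given food of which instant noodle made up 30% by weight, and fat supplied 26% of its energy. The 5 rats of the control group ate the same food with its seasonings left out. The noodle and fat shares were recorded for the noodle group only, so the comparison is taken to be of seasonings within a noodle diet. Feeding was paired, each rat getting about 60 g of food a day for each kg it weighed, and lasted 30 days by one label and 4 weeks by another. Neither the fat depot nor the strain was given in the sources used here.

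In fat cells, glucose is broken down to pyruvate and then to citrate in the mitochondrion. Citrate leaves through a carrier and is split into acetyl-CoA, from which malonyl-CoA and then palmitate are built with reducing power from NADPH. Palmitate is afterwards lengthened and desaturated. Transcription of these enzymes is known to rise with feeding and insulin, through the factors SREBP-1c and ChREBP.

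The values are log2 levels, 1 per probe set and animal. Of all 31042 probe sets tested, 2607 (8.4%) had an SD above 0.01 over the 10 arrays, and those at or below 0.01 are called flat. Flat probe sets (91.6%) included those of abundant fat cell genes such as Adipoq and Fabp4, and how so many values came to be nearly equal between arrays was not given in the sources used here, so a flat gene is not read as a gene that did not vary. All 17 probe sets of the lipogenic genes were above it, with SDs of 0.185 to 0.842, against a median SD of 0.191 over the variable probe sets. Array medians were 6.17 to 6.18. Adipocyte markers, 18 of which were measured and 11 of those variable, were at a median of 11.6. Their summed log2 levels ranged from 202.7 to 205.0 in the noodle group and from 203.3 to 204.9 in the control group. The flat markers add nearly constant values to these sums. The labels' extraction step names brain as the sample, and 9 of 10 measured brain markers had mean levels below the array median, the exception being the myelin gene Mbp at 8.76. In RNA of whole tissue, fewer fat cells and less of a transcript per fat cell cannot be told apart.

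Promoter sequences from RefSeq (build GRCr8), 250 bases before to 50 after the annotated start, matched 7 of the 10 genes by symbol. The promoters of Acly, Slc25a1, Thrsp and Me1 are shown because the same 3 animals had the highest levels of each, and 1 of 2 annotated starts of Srebf1 because its highest animals were not those 3. Capitals mark CCAAT, the box bound by NF-Y, and GGGCGG, the GC box bound by Sp1 and related factors, on either strand.
Acly (chr10:85963582-85963881, minus strand): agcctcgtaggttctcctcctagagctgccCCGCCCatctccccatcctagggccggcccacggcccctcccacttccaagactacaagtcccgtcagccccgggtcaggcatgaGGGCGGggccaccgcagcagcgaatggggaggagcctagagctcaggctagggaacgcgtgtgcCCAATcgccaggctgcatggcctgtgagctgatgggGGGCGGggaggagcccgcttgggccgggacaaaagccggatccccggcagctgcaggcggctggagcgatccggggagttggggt
Slc25a1 (chr11:96559804-96560103, plus strand): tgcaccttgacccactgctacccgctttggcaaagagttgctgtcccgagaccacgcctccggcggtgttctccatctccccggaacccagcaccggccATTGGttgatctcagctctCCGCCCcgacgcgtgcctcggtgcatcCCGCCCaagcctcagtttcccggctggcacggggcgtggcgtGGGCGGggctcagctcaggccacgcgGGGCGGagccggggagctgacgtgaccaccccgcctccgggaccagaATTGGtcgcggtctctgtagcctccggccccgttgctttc
Thrsp (chr1:161138915-161139214, minus strand): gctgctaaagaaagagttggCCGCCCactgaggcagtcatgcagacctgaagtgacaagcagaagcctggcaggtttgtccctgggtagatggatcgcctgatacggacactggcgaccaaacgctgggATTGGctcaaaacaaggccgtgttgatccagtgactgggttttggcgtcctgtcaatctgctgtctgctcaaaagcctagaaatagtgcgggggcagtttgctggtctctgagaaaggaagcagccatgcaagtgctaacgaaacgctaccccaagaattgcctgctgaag
Me1 (chr8:96540195-96540494, minus strand): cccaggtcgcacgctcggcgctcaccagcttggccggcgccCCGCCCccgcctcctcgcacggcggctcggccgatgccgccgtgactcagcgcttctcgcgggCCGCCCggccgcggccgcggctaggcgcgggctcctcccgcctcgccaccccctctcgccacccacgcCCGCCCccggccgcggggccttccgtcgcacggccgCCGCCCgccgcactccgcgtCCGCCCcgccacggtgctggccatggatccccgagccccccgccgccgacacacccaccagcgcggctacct
Srebf1 (chr10:45518961-45519260, minus strand): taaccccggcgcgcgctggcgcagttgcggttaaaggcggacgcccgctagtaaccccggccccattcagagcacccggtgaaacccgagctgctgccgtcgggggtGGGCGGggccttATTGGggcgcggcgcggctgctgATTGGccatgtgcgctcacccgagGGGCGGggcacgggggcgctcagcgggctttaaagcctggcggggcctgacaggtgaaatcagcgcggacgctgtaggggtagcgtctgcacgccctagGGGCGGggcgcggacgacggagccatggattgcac

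The 7 matched genes had 9 promoters, as Srebf1 and Mlxipl had more than 1 annotated start. The letters CCAAT were present in 5 of the 7 genes and absent from Scd and Me1. They were in 7 of the 9 promoters, against 37.5% of all 33469 promoters of the same length. The letters GGGCGG were present in 5 of the 7 genes and absent from Scd and Mlxipl. They were in 6 of the 9 promoters, against 33.1% of all promoters. The E-box CACGTG and the sterol element TCACNCCAC, searched on both strands, were in 0 of the 9, against 6.42% and 1.12% of all promoters. None of the 4 motifs contains another.

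In most of the lipogenic genes the same 3 rats had the highest levels, and these rats came from both diets. Noodle animals 1 and 13 and control animal 5 were the 3 highest of the 10 rats in 13 of the 17 probe sets, and in 7 of the 10 genes when each gene was represented by its brightest variable probe set. Among all 2607 variable probe sets, 105 (4.03%) had the same 3 animals at the top. The step from the third to the fourth highest rat differed between genes. It was 42.8% of the range in Fasn, by its brighter probe set, but 7.8% in Elovl6, by its brighter probe set, and 0.55% in Scd. That these 3 stood apart was seen in the data and does not come from the labels, and the animals were not compared as groups. The mean standardized level of the 10 genes, in SD units, was 1.23, -0.95, -0.34, -0.68 and 1.13 in the noodle animals, against -0.26, 1.20, -0.29, -0.43 and -0.60 in the controls. The SD of Scd and of both Fasn, Acaca and Me1 probe sets lay between the percentiles 97.1 and 99.1 of all variable probe sets, while those of Srebf1 and of the brightest probe set of Thrsp lay between 47.2 and 56.5.

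**Figure D1:**
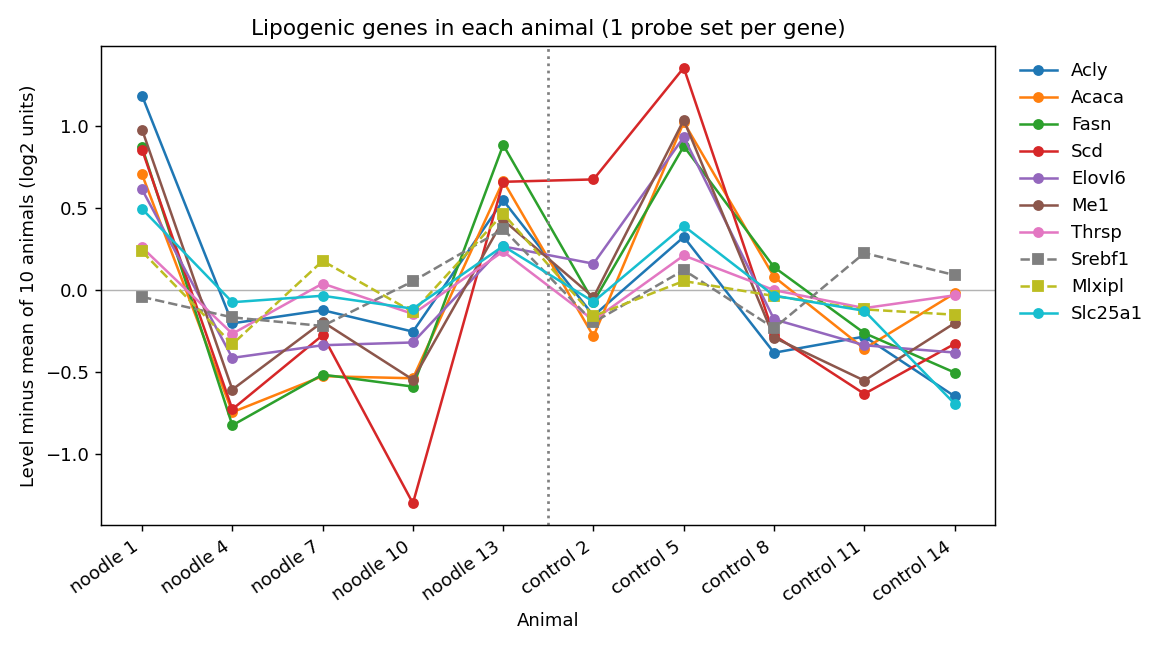
Level of each of the 10 lipogenic genes in each rat, as log2 units above or below the mean of that gene over the 10 animals. Solid lines with circles are enzymes, the citrate carrier and Thrsp, dashed lines with squares are the transcription factors Srebf1 and Mlxipl, and the dotted line parts the 5 noodle from the 5 control animals. Noodle 1, noodle 13 and control 5 are peaks in most genes.

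Citrate export and cleavage come first in the pathway. Slc25a1, the mitochondrial citrate carrier, had levels of 9.48, 8.91, 8.95, 8.87 and 9.25 in noodle animals 1, 4, 7, 10 and 13, against 8.91, 9.38, 8.95, 8.86 and 8.29 in control animals 2, 5, 8, 11 and 14. Acly, ATP citrate lyase, which splits citrate into acetyl-CoA, stood at 10.89, 9.49, 9.57, 9.44 and 10.25 in the noodle animals, against 9.54, 10.02, 9.31, 9.41 and 9.05 in the controls. The groups overlapped in both genes. Noodle animal 1 was the highest and control animal 14 was the lowest rat in both genes.

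The chain is built by acetyl-CoA carboxylase and fatty acid synthase. Acaca, the carboxylase that makes malonyl-CoA, had levels of 10.54, 9.08, 9.30, 9.29 and 10.50 in the noodle animals, against 9.55, 10.86, 9.91, 9.47 and 9.81 in the controls. Fasn, the synthase, measured by its brighter probe set, stood at 11.86, 10.16, 10.47, 10.39 and 11.87 in the noodle animals, against 10.91, 11.86, 11.12, 10.72 and 10.48 in the controls. The 3 high animals were within 0.02 of each other in Fasn by this probe set, 0.73 above the next rat, control animal 8. By its second probe set Fasn read 11.18, 9.07, 9.62, 9.33 and 11.16 in the noodle animals, against 9.88, 11.46, 10.24, 9.60 and 9.88 in the controls, which spans 5.24-fold between the lowest and highest animal, against 3.28-fold by the brighter one. In both probe sets of Fasn and of Acaca the 3 high animals were the same and noodle animal 4 was the lowest. In the brighter probe set of each gene, noodle animals 7, 10 and 4 were the 3 lowest rats.

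Elovl6 and Scd act on the finished chain, and Me1 supplies NADPH. Elovl6, which lengthens palmitate, had levels of 8.19, 7.16, 7.24, 7.25 and 7.84 in the noodle animals, against 7.73, 8.51, 7.39, 7.24 and 7.19 in the controls. Scd, the delta-9 desaturase, stood at 12.56, 10.98, 11.43, 10.40 and 12.37 in the noodle animals, against 12.38, 13.06, 11.43, 11.07 and 11.38 in the controls, a 6.33-fold span. In Scd, control animal 2 joined the high animals, 0.015 above noodle animal 13, and noodle animal 10 was the lowest. Malic enzyme, Me1, had levels of 10.17, 8.59, 9.0, 8.65 and 9.62 in the noodle animals, against 9.15, 10.23, 8.90, 8.64 and 8.99 in the controls. Control animal 5 was the highest and noodle animal 1 the second in all 3 of these genes and in their second probe sets where they have one.

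Among the regulators, Thrsp, known as Spot 14, is a small protein that promotes lipogenesis, and the brightest of its 3 probe sets had levels of 13.17, 12.64, 12.95, 12.76 and 13.14 in the noodle animals, against 12.72, 13.12, 12.91, 12.80 and 12.88 in the controls. That probe set spanned 1.44-fold, while the dimmer 2 spanned 1.81-fold and 1.95-fold with the same 3 animals on top. Mlxipl, which encodes the carbohydrate-responsive factor ChREBP, stood at 7.47, 6.90, 7.41, 7.10 and 7.70 in the noodle animals, against 7.07, 7.28, 7.19, 7.11 and 7.08 in the controls. In Mlxipl noodle animals 13, 1 and 7 were the highest, the controls were close together with an SD of 0.091, and control animal 5 came next. Srebf1, which encodes SREBP-1, had levels of 9.20, 9.07, 9.02, 9.29 and 9.61 in the noodle animals, against 9.04, 9.36, 9.01, 9.47 and 9.33 in the controls. In Srebf1 control animals 11 and 5 followed noodle animal 13, noodle animal 1 was sixth, and the second probe set also put noodle 1 sixth.

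**Figure D2:**
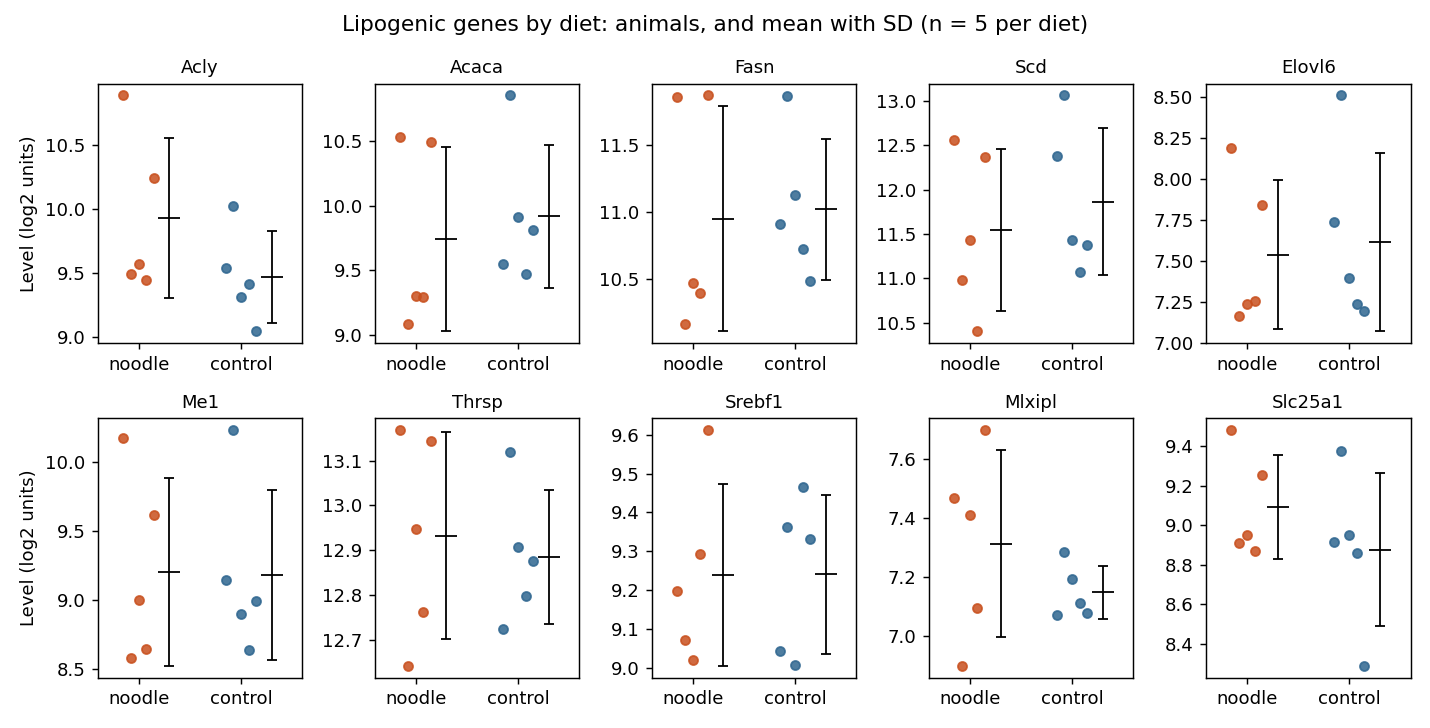
Log2 level of each lipogenic gene in the 5 noodle (left) and 5 control (right) rats, with the mean and SD of each diet beside its points. The diets overlap in all 10 genes, and in Fasn and Acaca 2 noodle animals and 1 control animal lie above the rest.

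The diets were compared to ask whether the seasonings of the noodle diet changed these genes. No lipogenic gene passed the threshold. Of the 17 probe sets, 0 reached an adjusted p of 0.05 in limma and 0 an unadjusted p of 0.05, where 0% and 4.77% of all 31042 probe sets did, and the lowest values were an adjusted p of 0.993 and an unadjusted p of 0.176. The groups overlapped in 17 of 17, and 0.959% of the variable probe sets had groups that did not overlap. Of the 10 genes, 5 had a positive and 5 a negative difference, noodle minus control, with a median of 0.0099 log2 units, against 4.19e-06 over all probe sets tested and -0.012 over the variable ones. The share of a gene's variance over the 10 rats that lay between the diets had a median of 2.1% and reached 20.3% in Acly.

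Acly averaged 9.93 ± 0.63 in the noodle group and 9.47 ± 0.36 in the control group (SD, n = 5), a difference of 0.46 ± 0.31 (SE, n = 5 per diet) with a 95% interval of -0.25 to 1.17. The SE follows ± in each difference from here on. Without noodle animal 1 the difference in Acly was 0.22. Slc25a1 differed by 0.22 ± 0.20 (interval -0.25 to 0.68), and by 0.068 without control animal 14. Mlxipl differed by 0.16 ± 0.14 (interval -0.16 to 0.49), and by 0.069 without noodle animal 13. These 3 genes had positive differences in every fit that left out 1 animal, and none of those passed.

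Scd averaged 11.55 ± 0.92 in the noodle group and 11.87 ± 0.83 in the control group, and the difference was -0.32 ± 0.54, with an interval of -1.54 to 0.90, and it was -0.017 without control animal 5. Acaca averaged 9.74 ± 0.71 in the noodle group and 9.92 ± 0.55 in the control group, a difference of -0.18 ± 0.39 with an interval of -1.07 to 0.71. Fasn averaged 10.95 ± 0.84 in the noodle group and 11.02 ± 0.53 in the control group, a difference of -0.07 ± 0.43 with an interval of -1.05 to 0.91. Elovl6 differed by -0.08 ± 0.31 (interval -0.78 to 0.62) and Me1 by 0.02 ± 0.40 (interval -0.88 to 0.93). Narrower were Thrsp, at 0.05 ± 0.12 (interval -0.22 to 0.32), and Srebf1, at -0.002 ± 0.135 (interval -0.31 to 0.30). The signs of Acaca, Fasn, Elovl6, Me1, Thrsp and Srebf1 turned when single animals were left out, and in Acaca, Fasn, Elovl6 and Me1 both ends of the range came from leaving out control animal 5 or noodle animal 1 or 13.

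**Figure D3:**
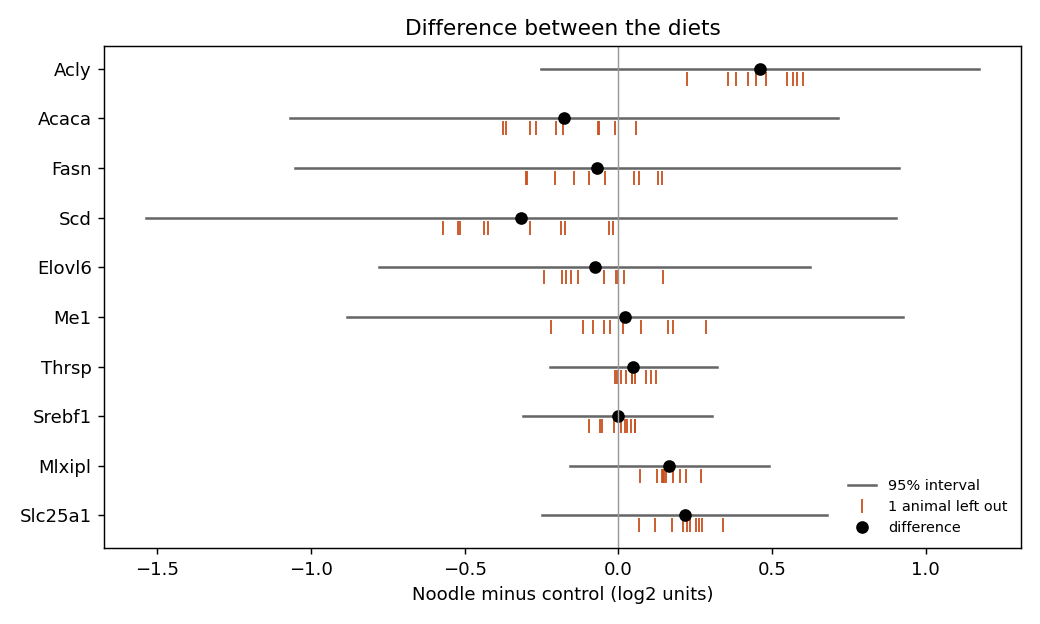
Difference between the diets, noodle minus control in log2 units, for each lipogenic gene (black points), with its 95% interval from limma (grey bars) and the difference with each animal left out in turn (orange ticks). Every interval includes 0, and those of Fasn, Scd, Acaca and Me1 are the widest.

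RNA quality was read from control probe sets at both ends of Actb and Gapdh. The 3-prime minus 5-prime log2 difference averaged 0.837 ± 0.069 in the noodle group and 0.950 ± 0.084 in the control group (SD, n = 5, two-sided exact permutation p = 0.0476, with 0.0079 the smallest possible). It was 0.82 and 0.75 in noodle animals 1 and 13 and 1.06 in control animal 5, so the 3 animals high in Fasn included both its lowest and its highest value. With it as a covariate, Slc25a1 differed by 0.42 and Mlxipl by 0.035, Elovl6 and Thrsp turned sign, and 0 of the 10 genes passed. Beyond this and a count of correlated pairs given below, its part in the values was not tested.

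How far the genes varied together was measured by correlation over animals for all 45 pairs of the 10 genes. Over the 10 rats, 27 of the 45 pairs passed (permutation test with 100000 resamples, two-sided, adjusted over the 45 pairs), 19 by rank correlation, and 30 once the mean of each diet was subtracted (exact permutation within diets). The weakest of the 27 had r = 0.68, and 8.32% of all pairs among the 1786 genes with a variable probe set had an r of that size or larger in either direction over the same rats. Of these 27, 24 were among the 28 pairs of the enzymes, the carrier and Thrsp. Srebf1 had 0 pairs past the threshold and Mlxipl 3, with Thrsp, Fasn and Acly. Without noodle animal 1 the count was 16. It was 34 with each gene's values taken as residuals from the 3-prime minus 5-prime difference. In a planned check, r was taken again without the 2 animals farthest from the median of the first gene of each pair. It was then positive in 42 of the 45 pairs, with a median of 0.626 and a lowest value of -0.097. At least 1 of the 3 high animals stayed in each of these coefficients. How much of a coefficient over 10 rats comes from the distance of those 3 was not tested. Coefficients of single pairs are given for the other 7.

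Over those 7 rats, 0 of 45 pairs passed, and 2 had an unadjusted p under 0.05, all by exact permutation of Pearson's r. Such a threshold passes some pairs by itself, and how many is not known here, because the 7 rats were selected on these same genes. The 2 pairs were Scd with Me1 (r = 0.853, exact p = 0.00536, adjusted p = 0.165, rho = 0.857, exact p = 0.0238, n = 7) and Thrsp with Mlxipl (r = 0.866, exact p = 0.00734, adjusted p = 0.165, rho = 0.893, exact p = 0.0123, n = 7). Acaca with Fasn had r = 0.757 (exact p = 0.0524, rho = 0.893, exact p = 0.0123, n = 7). Acly with Slc25a1 had r = 0.875 (exact p = 0.0577, rho = 0.464, exact p = 0.302, n = 7), in which control animal 14 was lowest in both. Acly with Acaca was negative, with r = -0.695 (exact p = 0.073, rho = -0.571, exact p = 0.2, n = 7). The rank correlation farthest from 0 was that of Srebf1 with Slc25a1, which was negative (rho = -0.964, exact p = 0.00278, adjusted p = 0.125, r = -0.496, exact p = 0.153, n = 7). None of the 27 calls over 10 animals was kept without noodle animals 1 and 13 and control animal 5, where fewer animals remain to test. Those left out were picked as the highest in most of these genes, which narrows the range of levels left to correlate. The loss of calls therefore does not show that the genes vary apart, and the p-values over the 7 rats are not those of an unselected sample. In all, 29 of the 45 pairs (64.4%) were positive over the 7 rats, against 53.6% of all pairs among those 1786 genes.

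Different probe sets of a gene followed each other in the same 7 rats, with r of 0.752 to 0.923 over 8 comparisons in Acaca, Fasn, Elovl6, Me1, Thrsp and Srebf1. For Srebf1, whose pattern differed from the enzymes, the 2 probe sets correlated at 0.911 (n = 7, each set measuring the same RNA).

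**Figure D4:**
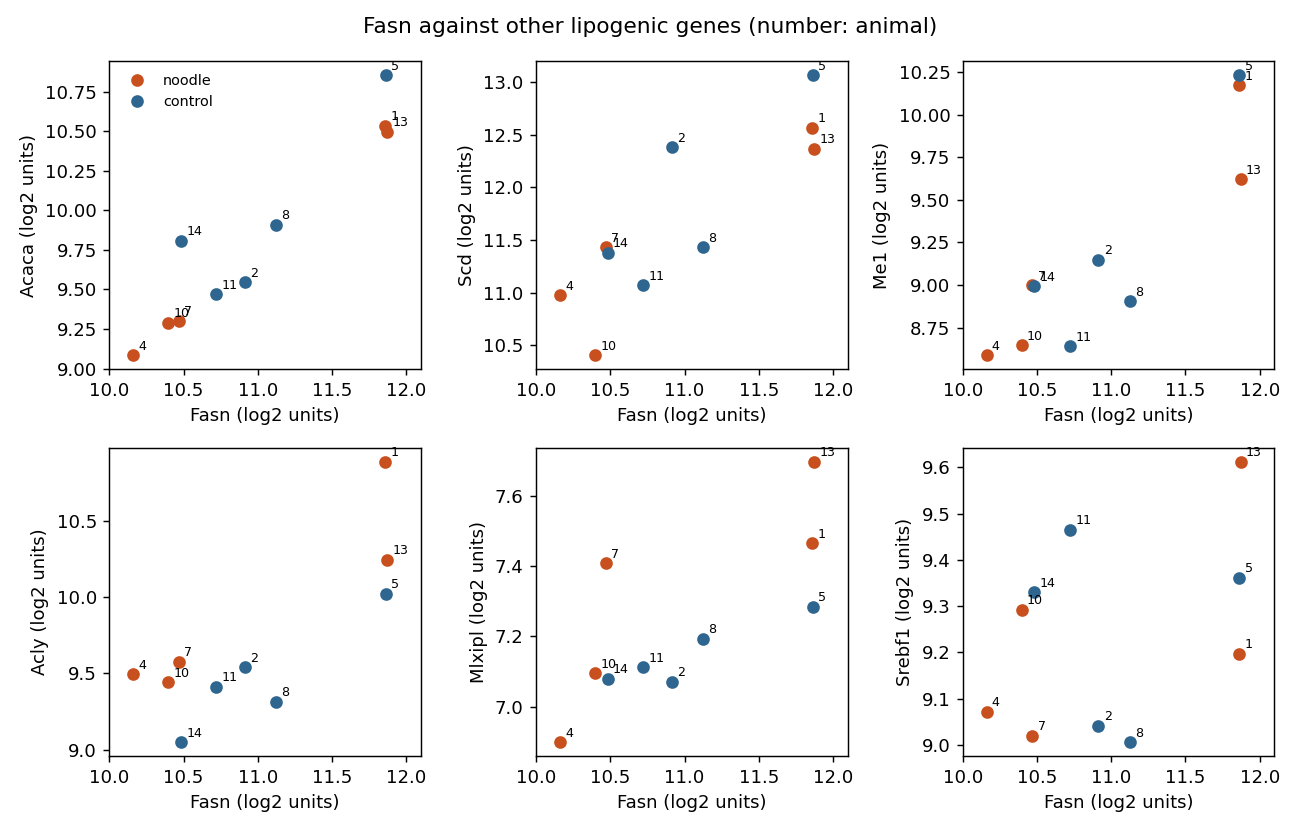
Log2 level of Fasn (horizontal) against Acaca, Scd, Me1, Acly, Mlxipl and Srebf1 (vertical) in each rat, noodle in orange and control in blue, with the animal number beside each point. Noodle 1, noodle 13 and control 5 lie together at a Fasn level of about 11.9, and in the panel of Srebf1 they are spread over its upper and middle range.

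Genes that feed the pathway were counted from lists, each by its brightest probe set. Of 17 measured genes from glucose uptake to citrate, 11 were variable, 8 of them with a positive and 3 with a negative difference, and 0 passed. In 7 of the 11 the 3 highest animals were again noodle 1, noodle 13 and control 5: Slc2a4, the insulin-responsive glucose transporter, the glycolytic enzyme Eno1, the pyruvate carriers Mpc1 and Mpc2, the pyruvate dehydrogenase genes Pdha1 and Pdhb, and pyruvate carboxylase, Pc. Pdhb had levels of 10.10, 9.45, 9.78, 9.70 and 10.17 in the noodle animals, against 9.62, 10.02, 9.71, 9.50 and 9.56 in the controls. The mean of the 11 genes was 9.79, 9.40, 9.56, 9.59 and 9.75 in the noodle animals, against 9.47, 9.90, 9.60, 9.43 and 9.55 in the controls. Between the diets, Pdhb differed by 0.16 ± 0.16, Slc2a4 by 0.13 ± 0.14 and hexokinase 2, Hk2, by 0.08 ± 0.10.

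Of 9 measured genes of NADPH supply, 7 were variable, 6 with a positive and 1 with a negative difference, and 0 passed. The same 3 animals led in Tkt and Taldo1, of the pentose phosphate pathway, and in Mdh1, the cytosolic malate dehydrogenase. Transketolase, Tkt, had levels of 10.68, 10.06, 10.23, 10.21 and 10.65 in the noodle animals, against 10.18, 10.62, 10.32, 10.04 and 10.16 in the controls. The other named genes of the list, Rpe and Idh2, differed by 0.06 ± 0.09 and 0.09 ± 0.15 between the diets, and Tkt by 0.10 ± 0.16.

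Other steps of synthesis had 4 variable genes of 10 measured, all 4 with positive differences, noodle minus control, and 0 passing. Aacs, which activates acetoacetate for lipid synthesis, differed by 0.26 ± 0.16, Mid1ip1, a partner of Acaca and relative of Thrsp, by 0.14 ± 0.12, and Pnpla3 by 0.47 ± 0.38. Pnpla3 stood at 8.95, 7.81, 8.49, 7.61 and 9.12 in the noodle animals, against 8.35, 8.30, 7.16, 8.38 and 7.44 in the controls. Its highest values were those of noodle animals 13 and 1, and control animal 5 was below noodle animal 7 and control animals 2 and 11.

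Of 11 measured genes for the use of new fatty acids, 5 were variable, all 5 with positive differences and 0 passing. Scd2, a second desaturase, differed by 0.18 ± 0.17, the desaturase Fads1 by 0.17 ± 0.19, and Gpam, the first acyltransferase of triglyceride synthesis, by 0.10 ± 0.20. In Gpam alone of these 5 the 3 high animals were the same as in Fasn.

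Of 8 measured genes that control SREBP, 2 were variable and 0 passed, where 91.6% of all probe sets were flat. Insig1, which holds SREBP in the endoplasmic reticulum and is itself an SREBP target, differed by 0.17 ± 0.14, and Lpin1, a phosphatidate phosphatase that also restrains SREBP, by -0.17 ± 0.08. All 9 partners of ChREBP and activators of lipogenic promoters on the list, Mlx and the liver X receptors Nr1h2 and Nr1h3 among them, were flat, as 91.6% of all probe sets were, and 0 passed, with 1 at an unadjusted p under 0.05. With such values the list says nothing of how these factors varied.

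Genes outside the list were then ranked by their correlation with the mean standardized level of the 10 lipogenic genes over the 10 rats, as a description. The values share the same arrays, and the ranking rests largely on noodle animals 1 and 13 and control animal 5. Among 1776 genes, the 10 highest were Tkt (r = 0.957), Eno1 (0.953), C8h11orf54 (0.951), Slc25a10 (0.937), Pdhb (0.936), Parm1 (0.929), Tlcd3b (0.927), Pygl (0.916), Pappa2 (0.912) and Chpt1 (0.909). Over the other 7 rats these coefficients were 0.521, 0.697, 0.828, 0.041, 0.573, 0.607, 0.814, 0.465, 0.727 and 0.195 in the same order. Slc25a10 is the mitochondrial dicarboxylate carrier and Pygl a glycogen phosphorylase.

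The 5 lowest were Fos (r = -0.908), Ier2 (-0.872), Sult1d1 (-0.857), Pbrm1 (-0.856) and Fibin (-0.845), with -0.357, -0.550, -0.708, -0.624 and -0.633 over the other 7 rats. Fos and Ier2 are immediate early genes, transcribed within minutes of many stimuli. Fos had levels of 6.66, 8.91, 8.64, 8.12 and 7.36 in the noodle animals, against 8.08, 6.39, 8.19, 9.06 and 8.42 in the controls. The 3 animals highest in Fasn were the 3 lowest in Fos, and Fos differed between the diets by -0.09 ± 0.59, which did not pass (adjusted p = 0.999 in limma).

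**Figure D5:**
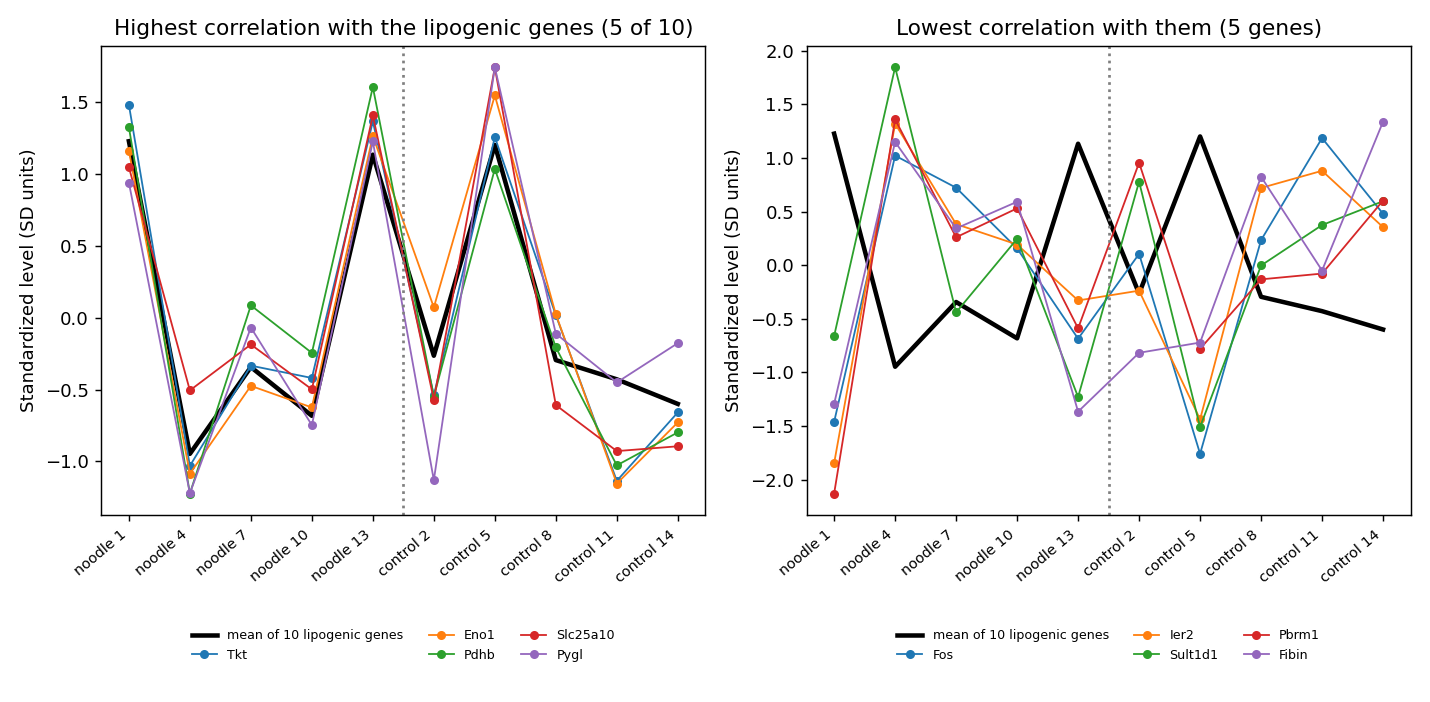
Standardized level (SD units over the 10 rats) of 5 of the 10 genes with the highest (left) and the 5 with the lowest (right) correlation with the mean of the 10 lipogenic genes, which is the thick black line. The left genes peak in noodle 1, noodle 13 and control 5, and Fos is at its 3 lowest values there.

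Marker lists of cell types did not follow the same order of animals. In the means of variable markers, the 3 highest animals were noodle 10, control 5 and noodle 13 for adipocytes (11 genes), and noodle 4, control 14 and noodle 1 for both macrophages (13 genes) and fibroblasts (8 genes). The adipocyte mean was 10.51, 10.45, 10.52, 10.66 and 10.65 in the noodle animals, against 10.52, 10.65, 10.54, 10.50 and 10.55 in the controls, with noodle animal 1 among the lower values. For the 3 variable brown adipocyte markers the 3 highest animals were the same as for adipocytes. Of all variable markers in 9 cell type lists beside that of adipocytes, 0 had noodle 1, noodle 13 and control 5 as their 3 highest animals. Of the 11 adipocyte markers 1 did, Slc2a4. These 9 lists held 1 to 13 variable markers each. The same 3 animals were at the top in only 4.03% of all variable probe sets, so a count of 0 is near that share. Between the diets, all 13 variable macrophage markers had positive and all 9 mesothelial markers negative differences, with 0 passing. Among other lists, the 3 variable red blood cell markers had negative and the 3 brown adipocyte markers positive differences. Adipocyte markers had 7 positive and 4 negative, endothelial markers 2 and 4, and fibroblast markers 5 and 3. Markers of a list were measured in the same rats, so their signs are not separate observations. Summed log2 levels were 122.3 to 128.9 in the noodle group and 120.4 to 127.7 in the control group for 15 macrophage markers, and 54.8 to 62.6 in the noodle group and 54.4 to 68.2 in the control group for 9 mesothelial markers. Of these markers, 0 of 15 and 3 of 9 had mean levels below the array median, and their part in the lipogenic values was not tested.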

How the data were processed

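The deposited table holds 1 log2 value per probe set and array, taken as log2 from its range. How the authors corrected background, summarised and normalized was not given in the sources used here, nor was the log base. The 57 control probe sets were left out, which left 31042. Diet groups came from the labels. The labels do not state which rats were paired, so no pairing was used. All probe sets were fitted with limma 3.58.1 in R 4.3.3 (lmFit, eBayes, two-sided, noodle minus control), with Benjamini-Hochberg adjustment over all 31042 and a threshold of 0.05. Intervals are 95% limma intervals. Each lipogenic gene was represented by its probe set with the highest mean among those with SD above 0.01, and likewise the genes compared by correlation. Genes of lists were represented by their brightest probe set. Pairs were tested by permutation in Python 3.11.15. Named genes were all 10 members, up to 3 variable genes with the smallest p per pathway list, and the 10 highest and 5 lowest correlations with the members' mean. The members and lists were chosen with earlier results of these data known. Alternatives were quantile normalization, median centring, filters on dim or flat probe sets, an intensity trend, array weights, the 3-prime to 5-prime covariate, other probe sets and leaving out each animal. Leaving out 3 animals together was added after the data were seen. The fits were tested on simulated data. The labels describe 1 sample per array and 5 per group, which limits the precision. They number the samples without naming the rat behind each, so p-values measure the spread between these samples.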

Additional observations from a re-analysis of the deposited data

Results flagged for a closer look

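Of 34 groups of 5 animals examined, over the 17 lipogenic probe sets and both diets, 2 held an animal set well apart from its group, and about 1.7 would be by chance, at about 1 in 20. The groups are the same 10 animals seen through probe sets that follow each other, not separate trials, so that expected count is only a rough guide. Both animals set apart were control animal 5. In the dimmer probe set of Acaca it stood at 7.83, against 6.41 to 6.82 in the other controls, and in the dimmer probe set of Me1 at 10.19, against 8.45 to 8.96. In both probe sets noodle animals 1 and 13 had levels closer to control animal 5 than the other controls did.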

How the results depend on the processing

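No lipogenic gene passed the threshold under any of the 19 alternatives run per gene, which gave 190 values, of which 26 turned sign, and the lowest adjusted p was 0.368. Over all probe sets, 0 passed under each alternative and 0 to 1 with single animals left out, the 1 without control animal 14. The count at an unadjusted p under 0.05 was 1481, and 245 with quantile normalization, 246 with median centring, 855 without the dimmest 50% 187 with variable probe sets only (these last 2 test fewer probe sets), 1378 with an intensity trend, 1675 with array weights, 2068 with the 3-prime to 5-prime covariate, and 1132 to 1933 with single animals left out. With single animals left out, the difference ranged from -0.375 to 0.057 for Acaca, -0.301 to 0.140 for Fasn, -0.241 to 0.146 for Elovl6, -0.22 to 0.284 for Me1, -0.011 to 0.121 for Thrsp and -0.096 to 0.054 for Srebf1. The 3-prime to 5-prime covariate turned Elovl6 to 0.126 and Thrsp to -0.0134. Array weights turned Me1 to -0.0423 and Srebf1 to 0.0318, the mean of its probe sets turned Me1 to -0.0097, and quantile normalization turned Srebf1 to 0.00023. The cause of these turns was not tested. The count of 27 correlated pairs was 34 with residuals from the 3-prime minus 5-prime difference and 25 with quantile normalization. It ranged from 16 to 28 with single animals left out. It was 0 without noodle animals 1 and 13 and control animal 5, where fewer animals remain and those left out were the highest in these genes. No paired analysis was run, because the labels speak of paired feeding without saying which rats were paired. Animal numbers of the 2 diets adjoin, such as noodle 1 and control 2, but no label says that adjoining numbers are pairs.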

Other observations

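Within an animal, the level of one lipogenic gene relative to another cancels only a shift of the same log2 size in both. Where the genes vary by different amounts, part of a shared pattern stays in the contrast. All 45 such contrasts were compared between the diets by two-sided exact permutation. The contrast with the smallest p was Acly minus Elovl6. It was 2.70, 2.34, 2.34, 2.19 and 2.41 in the noodle animals, against 1.81, 1.51, 1.92, 2.18 and 1.86 in the controls. By the brighter Elovl6 probe set it was higher than every control in 5 of 5 noodle rats. The difference was 0.54 log2 units (exact p = 0.0079, the smallest possible, n = 5 per diet). Noodle animal 10 and control animal 11 were close, at 2.19 and 2.18. By the second Elovl6 probe set these 2 rats changed order, so the groups overlapped. Acly and that probe set were at 9.44 and 6.17 in noodle animal 10, and at 9.41 and 6.07 in control animal 11. After adjustment over the 45 contrasts, Acly minus Elovl6 did not pass (adjusted p = 0.357). Acly minus Fasn, Acly minus Acaca and Acly minus Me1 differed by 0.53, 0.64 and 0.44 (exact p = 0.0317 each, n = 5 per diet), with the same adjusted p. These contrasts share Acly and were singled out after the values were seen.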
